A study of Mus musculus with 8 samples.

Results

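The genes described here are 10 members of the machinery by which cells recognise and take up apoptotic cells: the receptors *Mertk*, *Axl* and *Tyro3*, the bridging proteins *Gas6*, *Pros1* and *Mfge8*, the further receptors *Cd36* and *P2ry6*, the engulfment adaptor *Elmo1* and the scramblase *Xkr8*. They were chosen by name, with earlier results of these data known. All 18 probe sets that the array annotation gives to one of them alone were taken, of 45037 probe sets and 18193 genes in all. Gene expression was measured in E12.5 mouse brain on 1-colour Affymetrix arrays, which read a transcript by 1 or more sets of short probes. The knockout embryos, named as in the labels, were *Nestin Cre+, Rest GTi/GTi* (4 arrays) and the littermate controls were *Rest GTi/GTi* (4 arrays), all of strain C57/BL6 and labelled as biological replicates. Every embryo of both groups thus carried the conditional gene trap in *Rest* on both alleles, inverted so that *Rest* is spliced normally. *Rest* is the gene of a transcriptional repressor of neuronal genes. In the knockout embryos alone, the *Nestin* promoter drove Cre, which turns the trap to its active direction, in neural progenitors and their progeny. Macrophages do not descend from those progenitors and are not the target of Cre, although the dissected tissue holds them. Cre and the loss of REST cannot be told apart in this design, and whether an array holds 1 embryo or several is not stated, so the p-values measure the spread between these arrays.

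A dying cell exposes phosphatidylserine on its outer surface, which scramblases such as Xkr8 bring about once caspases are active. Bridging proteins bind this lipid and a receptor on the phagocyte: Gas6 and protein S (*Pros1*) link it to the receptor tyrosine kinases Tyro3, Axl and Mertk, called TAM receptors, and Mfge8 links it to integrins. Receptors signal through adaptors such as Elmo1, which works with Dock1 to activate Rac and extend the membrane around the corpse, and in the developing brain microglia, neural progenitors and other neighbours can all take part.

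Values are intensities after quantile normalization, fold changes are differences of log2(intensity + 16), and a gene was called at an adjusted p under 0.05 with limma, adjusted by Benjamini-Hochberg over all probe sets. Where a gene has several probe sets, the one with the highest mean represents it. The level of *Rest* itself ranged from 84.4 to 216.7 on the knockout arrays and from 170.1 to 271.8 on the controls, so the groups overlapped (log2 fold change -0.51, two-sided exact permutation p = 0.143). The array labelled knockout replicate 2 was above 3 of the 4 controls on this probe set. The other knockout arrays, at 163.1, 84.4 and 133.7, were below every control. Group names are those of the labels. On a further probe set, with a log2 fold change of -0.63, the levels were 76.6 to 203.6 on the knockout arrays and 158.4 to 223.1 on the controls. There knockout replicate 2 was above 2 of the 4 controls, while replicates 3 and 4, at 76.6 and 77.1, were below every control. The position of the probes with respect to the trap is unknown here. Knockout replicates 1 and 2 differed from the other 6 arrays in transcripts of mesenchyme and meninges: the mean log2 level of 15 measured markers of 16, relative to the control mean, was 2.32 and 3.17 on these arrays and -0.12 and -0.36 on replicates 3 and 4, against -0.38 to 0.45 on the controls. The mean of the 19 measured microglia and macrophage markers of 20 lay between 1.01 and 1.16 on all knockout arrays and between -0.07 and 0.10 on the controls. The 10 neural progenitor markers and the 10 neuron markers that define the dissected tissue were present on every array, with summed intensities of at least 34761 and 31485. The X-inactivation RNA *Xist* was at 7875.1 and 8247.1 on control replicates 2 and 3 and at no more than 57.8 elsewhere, so those arrays carry the signal of females and the other 6 that of males.

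None of the 10 genes passed the test in either direction, and no single probe set of the 18 did. With the test that the methods name, adjusted over all probe sets, the count was also 0. Of all genes, 39 were called higher in knockout brain (0.214%) and 2 lower (0.011%), and of all probe sets 60 were called higher (0.133%) and 3 lower (0.00666%). The log2 fold change was above 0 for 7 members and below 0 for 3, with a median of 0.16 beside -0.0014 over all genes. For 3 members, *Mertk*, *Gas6* and *Cd36*, every knockout array lay above every control, and for none did every array lie below. Over all genes the groups failed to overlap in this way for 2.48% with the higher values in knockout brain and for 2.15% with the lower. At an unadjusted p under 0.05 with limma, 4 members were higher (*Mertk*, *Gas6*, *Cd36* and *P2ry6*) and 0 lower, beside 3.94% higher and 3.03% lower of all genes. Because the members were chosen with earlier results of these data known, these counts are a description. The mean intensity over the 8 arrays was at least 50 for 7 members and lower for *Cd36*, *P2ry6* and *Xkr8*.

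**Figure D1:**
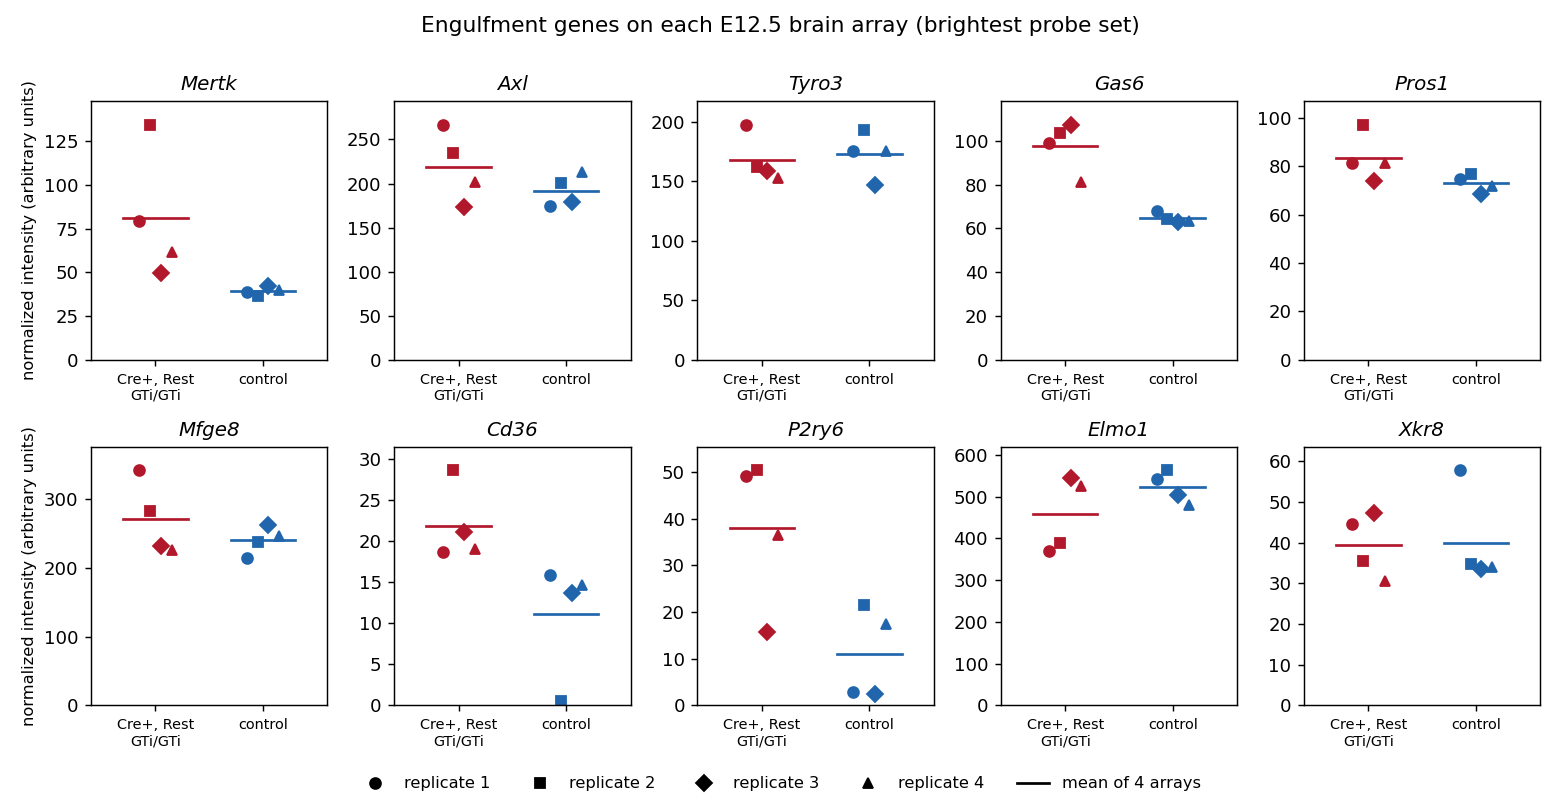
Normalized intensity (linear axes from 0, arbitrary units, each panel with its own scale) of the 10 engulfment genes on each array, knockout (*Cre+, Rest GTi/GTi*) at the left and control (*Rest GTi/GTi*) at the right, with marker shapes for the replicate and a bar for the mean of 4 arrays. The groups do not overlap in the panels of *Mertk*, *Gas6* and *Cd36*, and they overlap in the other 7.

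Among the TAM receptors, *Mertk*, a kinase that macrophages need to clear apoptotic cells, varied widely within the knockout group. Its normalized intensity was 79.5, 134.3, 49.4 and 61.7 on knockout replicates 1 to 4, against 38.5, 36.7, 42.3 and 39.8 on control replicates 1 to 4 (probe set 1422869_at). The controls lay within a few units of each other, while the knockout arrays spread widely, with replicate 2 far above the rest and replicate 3 just above the highest control. Means were 81.2 ± 37.5 in knockout brain and 39.3 ± 2.4 in controls (SD, n = 4 each). The log2 fold change was 0.74 (standard error 0.23, 95% confidence interval 0.22 to 1.26, limma adjusted p = 0.563). The two-sided exact permutation test gave p = 0.0286, the smallest that 4 arrays against 4 allow. *Mertk* was highest on the arrays that carried mesenchymal transcripts, and on replicates 3 and 4 alone the log2 fold change was 0.36 (limma adjusted p = 0.597). Without knockout replicate 2 it was 0.51 (limma adjusted p = 0.539). The summed intensity of the mesenchyme and meninges markers was 10758, 15356, 918 and 722 on knockout replicates 1 to 4 and 682 to 1651 on the controls, with none of the markers at 0 (the dimmest, *Osr1*, averaged 26.6). Its most intense members, the collagen genes *Col3a1* and *Col1a2* and the proteoglycan gene *Lum*, reached 4864.4, 3754.4 and 1880.2 at their highest in knockout brain, against 555, 224.1 and 137.8 at their highest in controls. The part of these transcripts in the *Mertk* values of replicates 1 and 2 was not tested. Those arrays also had the highest means of the endothelium (0.65 and 0.56), choroid plexus (1.46 and 1.18) and pericyte (0.32 and 0.28) markers. These are log2 levels relative to the control mean. On that scale the microglia and macrophage markers lay between 1.01 and 1.16 on all knockout arrays, above every control. The part of these further lists in the *Mertk* values was not tested either. In whole-brain RNA, more cells of a type and more RNA per cell cannot be told apart.

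*Axl*, a receptor with high affinity for Gas6, had overlapping values in the groups. It had 266.8, 234.2, 173.7 and 202.1 units on knockout replicates 1 to 4, and 174.5, 200.8, 178.7 and 212.7 units on control replicates 1 to 4 (probe set 1423586_at). Knockout replicates 1 and 2 were above every control, whereas replicate 3 was below every control. The log2 fold change of 0.17 (standard error 0.13) did not pass (limma adjusted p = 0.874), with a two-sided exact permutation p of 0.314, and on knockout replicates 3 and 4 alone it was -0.03. The further probe set of *Axl* was dim, with means of 6.5 in knockout brain and 7.3 in controls.

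The third TAM receptor, *Tyro3*, which is prominent in the nervous system, had 197.7, 161.7, 158.4 and 153.2 units on knockout replicates 1 to 4, and 175.8, 193.1, 146.7 and 175.3 units on control replicates 1 to 4 (probe set 1425248_a_at). The groups covered the same range, and the log2 fold change was -0.04 with a 95% confidence interval of -0.28 to 0.20 (limma adjusted p = 0.979). A further probe set gave 0.07 (95% confidence interval -0.12 to 0.26), so the probe sets differed in sign and both intervals held 0. The sign also turned without scaling between the arrays, where it was 0.04. *Mertk* had a larger fold change than *Tyro3* and *Axl*, but whether the receptors differed from each other in their response was not tested.

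Of the bridging proteins, *Gas6*, the ligand of all TAM receptors, separated the groups, with little spread in the controls and a wider spread in the knockout group. Normalized intensity was 99.0, 103.7, 107.4 and 81.1 on knockout replicates 1 to 4, against 67.8, 64.1, 62.8 and 63.6 on control replicates 1 to 4 (probe set 1417399_at). All knockout arrays were above all controls, replicate 4 by the least. The means were 97.8 ± 11.7 in knockout brain and 64.6 ± 2.2 in controls (SD, n = 4 each), a ratio of 1.51. With a log2 fold change of 0.49 (standard error 0.09, 95% confidence interval 0.29 to 0.69), *Gas6* had the smallest unadjusted p of the members, and its limma adjusted p was 0.153. The two-sided exact permutation test gave p = 0.0286, again the smallest possible here. Adjusted p-values over the 24 alternative settings ran from 0.0552, without knockout replicate 4, to 1, without scaling (limma).

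On knockout replicates 3 and 4 alone, where the mesenchyme list was within the range of the controls, the log2 fold change of *Gas6* was 0.44 (limma adjusted p = 0.56). The mean of the microglia and macrophage markers was higher on every knockout array than on any control. Of the 19 measured, 11 were called higher, beside 0.214% of all genes. The groups overlapped for *Spi1* (log2 fold change 0.06) and *Itgam* (0.24), and *Itgam* was the 1 marker with a mean below the added constant. The summed intensity of the list was 3157 to 3674 on the knockout arrays and 1214 to 1448 on the controls. The most intense were the protease gene *Ctss*, at 474 to 690.6 in knockout brain and 227.3 to 310 in controls, the macrophage growth factor receptor gene *Csf1r*, at 590.6 to 628.8 in knockout brain and 193.5 to 249 in controls, and the complement gene *C1qb*. The part of microglia and macrophages in the *Gas6* difference was not tested. The further probe set of *Gas6* was dim, with means of 13.2 in knockout brain and 15.2 in controls, and its log2 fold change was -0.10 (95% confidence interval -0.51 to 0.31). Averaging both probe sets lowered the log2 fold change of *Gas6* to 0.20.

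**Figure D2:**
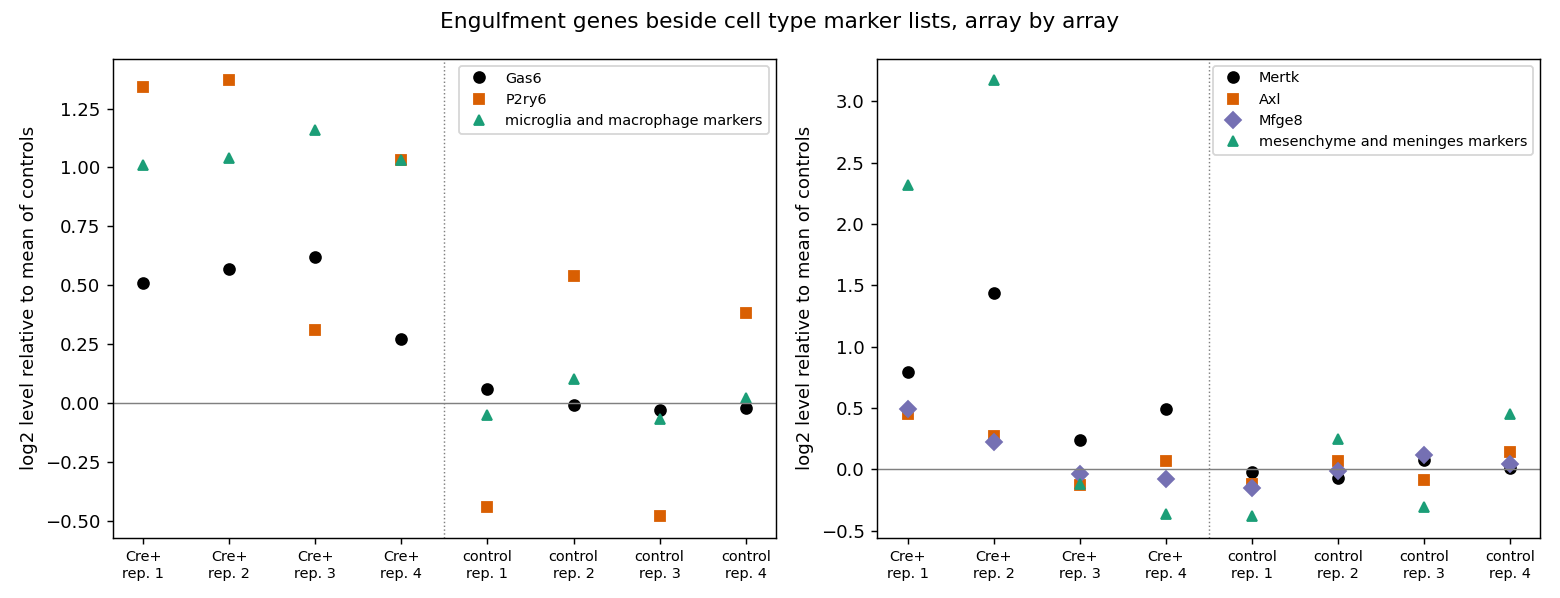
Log2 level by array, relative to the control mean, for *Gas6*, *P2ry6* and the mean of 19 microglia and macrophage markers (left) and for *Mertk*, *Axl*, *Mfge8* and the mean of 15 mesenchyme and meninges markers (right), with the 4 knockout arrays (Cre+) left of the dotted line and the 4 controls right of it in each panel. The microglia and macrophage markers lie between 1.01 and 1.16 on every knockout array, whereas the mesenchyme and meninges markers reach 2.32 and 3.17 on replicates 1 and 2 only.

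*Mertk* and *Gas6* encode a receptor and its ligand, and their groups did not overlap at mean intensities of at least 50, so the DNA around their start sites is set out here. RefSeq windows (GRCm38.p6) of 250 bases before and 50 after a start site were at hand for 8 of the 10 members, as 9 windows, and not for *P2ry6* and *Xkr8*. *Mertk* lies on chromosome 2 from 128698915 to 128803162 on the plus strand, with its window at chr2:128698665-128698964, and *Gas6* on chromosome 8 from 13465374 to 13494535 on the minus strand, with its window at chr8:13494486-13494785. Each window is written 5′ to 3′ in the direction of the gene, and capitals mark matches, on either strand, to the left part of the REST binding element RE1 (TTCAGCACC), to its right part (GGACAG) or to the GC box (GGGCGG). Neighbouring matches can touch, and GC boxes can overlap each other.
Mertk: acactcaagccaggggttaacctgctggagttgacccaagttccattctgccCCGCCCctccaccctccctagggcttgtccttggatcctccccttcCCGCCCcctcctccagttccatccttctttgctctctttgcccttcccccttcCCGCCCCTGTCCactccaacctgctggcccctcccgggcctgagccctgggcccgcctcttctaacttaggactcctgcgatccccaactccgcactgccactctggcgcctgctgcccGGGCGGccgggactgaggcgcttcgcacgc
Gas6: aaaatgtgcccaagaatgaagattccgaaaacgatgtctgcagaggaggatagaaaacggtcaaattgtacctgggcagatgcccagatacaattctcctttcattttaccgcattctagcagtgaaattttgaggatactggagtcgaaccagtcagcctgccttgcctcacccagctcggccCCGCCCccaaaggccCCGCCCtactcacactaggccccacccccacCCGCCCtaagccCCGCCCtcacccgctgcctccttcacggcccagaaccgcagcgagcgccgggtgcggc
The left part of RE1 was in 0 of the 9 windows, beside 0.371% of all 32851 promoter windows, and the right part in 5 of 9, beside 22.2% of all. *Mertk* held 1 right part, directly beside a GC box, and *Gas6* held none. The GC box was in 8 of the 9 windows, beside 35.7% of all, with 4 matches in *Mertk* and 4 in *Gas6*. The window without a GC box belongs to *Elmo1*, which has a further window with 3 matches. The bases G and C made up 66% of the *Mertk* window and 58.3% of the *Gas6* window. Over the 9 windows this share ran from 43% (*Cd36*) to 73.3% (*Tyro3*), and windows of like share were not compared. A match is a description of these letters and not a binding site, and sites outside these windows were not searched.

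*Pros1*, which encodes protein S, a ligand of Mertk and Tyro3 and an anticoagulant of plasma, had 81.2, 97.1, 73.8 and 81.4 units on knockout replicates 1 to 4, and 74.8, 76.9, 68.4 and 71.6 units on control replicates 1 to 4 (probe set 1426246_at). The knockout arrays were above all controls except for replicate 3, which lay among them. The log2 fold change was 0.16 (95% confidence interval -0.04 to 0.35, limma adjusted p = 0.786), and the two-sided exact permutation p was 0.0857. Without knockout replicate 2 it was 0.093, and on knockout replicates 3 and 4 alone 0.073. *Mfge8*, a secreted bridge between phosphatidylserine and integrins, had 341.4, 282.2, 231.8 and 225.8 units on knockout replicates 1 to 4, and 214.4, 237.2, 261.6 and 245.9 units on control replicates 1 to 4 (probe set 1420911_a_at). Like *Axl*, it was above the controls only on knockout replicates 1 and 2, the arrays with mesenchymal transcripts. Its log2 fold change of 0.15 (95% confidence interval -0.16 to 0.45, limma adjusted p = 0.89) became -0.06 on replicates 3 and 4 alone.

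*P2ry6* encodes a receptor for UDP that makes microglia phagocytic, and it had the highest fold change of the members on a dim probe set (1425214_at). Intensity was 49.1, 50.4, 15.8 and 36.6 on knockout replicates 1 to 4, against 2.9, 21.5, 2.4 and 17.5 on control replicates 1 to 4. Knockout replicates 1, 2 and 4 exceeded every control, and replicate 3 was below the higher pair of controls. The log2 fold change was 1.01 (standard error 0.31, 95% confidence interval 0.30 to 1.72, limma adjusted p = 0.565), with a two-sided exact permutation p of 0.0857. Because these intensities lie near the added constant, the fold change followed it, from 0.52 with a constant of 50 to 2.05 with a constant of 1, without passing the test in either case (limma adjusted p = 0.523 and 0.755). On knockout replicates 3 and 4 alone it was 0.65. The microglia and macrophage markers were highest on replicate 3, where *P2ry6* was at its lowest in the group, and their part in the *P2ry6* values was not tested.

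*Cd36*, a scavenger receptor for oxidised lipids and apoptotic cells that is also found on capillary endothelium, was close to the floor of the array on all 3 of its probe sets. The brightest of them (1450883_a_at) had 18.6, 28.6, 21.1 and 19 units on knockout replicates 1 to 4, against 15.8, 0.6, 13.7 and 14.6 units on control replicates 1 to 4. The groups did not overlap, but the lowest knockout array exceeded the highest control by less than the spread within either group. Its log2 fold change was 0.52 (95% confidence interval 0.04 to 0.99, limma adjusted p = 0.693), and the two-sided exact permutation p was 0.0286. Without control replicate 2, the array at 0.6 units, it was 0.29 (limma adjusted p = 0.741), with *Eif2s3y* as a covariate 0.27, and with constants of 50 and 1 it was 0.24 and 1.35. A second probe set (1423166_at) gave 23.5, 6.8, 15.8 and 17.2 units on knockout replicates 1 to 4 and 3.6, 1.9, 4.4 and 9.0 units on control replicates 1 to 4, with a log2 fold change of 0.60 (limma adjusted p = 0.514). Here knockout replicate 2 lay within the controls, although it was the highest array on the first probe set. The remaining probe set gave 0.08. The 12 endothelial markers averaged 0.65, 0.56, 0.08 and 0.06 on knockout replicates 1 to 4 relative to the controls, which themselves ran from -0.13 to 0.11, and their part in the *Cd36* values was not tested.

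*Elmo1*, the adaptor that couples several receptors to Dock1 and Rac, was the member furthest below 0. It had 369.3, 389.4, 545.1 and 524.6 units on knockout replicates 1 to 4, and 541.0, 563.2, 503.8 and 479.0 units on control replicates 1 to 4 (probe set 1424523_at). Knockout replicates 1 and 2, the arrays with mesenchymal transcripts, were below every control, and replicates 3 and 4 lay among the controls. The log2 fold change of -0.20 (standard error 0.14, limma adjusted p = 0.838) turned to 0.04 on replicates 3 and 4 alone. The further probe sets gave -0.07 and -0.22, so all 3 had the same sign and none passed.

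*Xkr8* encodes the caspase-activated scramblase that exposes phosphatidylserine on the dying cell itself, ahead of its recognition by phagocytes. Its intensity was 44.6, 35.4, 47.3 and 30.5 on knockout replicates 1 to 4, and 57.8, 34.7, 33.5 and 34.0 on control replicates 1 to 4 (probe set 1439590_at). The highest value belonged to control replicate 1, with the other controls close together, and the log2 fold change was -0.0031 (95% confidence interval -0.36 to 0.36, limma adjusted p = 0.999). Without control replicate 1 it was 0.21 (limma adjusted p = 0.825). The further probe set (1455704_at) had 40.5, 44.7, 47.1 and 42.8 units on knockout replicates 1 to 4 and 31.7, 38.1, 28.9 and 41.0 units on control replicates 1 to 4. On it only knockout replicate 1 reached into the range of the controls, and the log2 fold change was 0.24 (limma adjusted p = 0.685, two-sided exact permutation p = 0.0571).

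**Figure D3:**
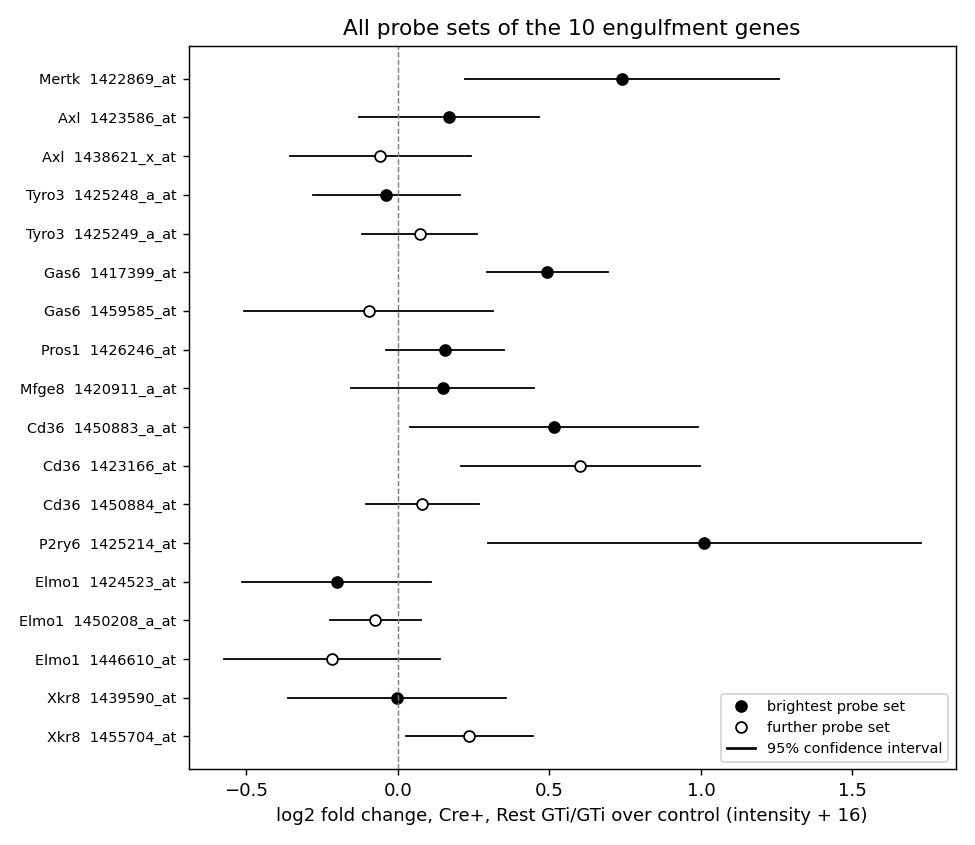
Log2 fold change, knockout (*Cre+, Rest GTi/GTi*) over control, on the scale of intensity + 16, for each of the 18 probe sets (filled, the brightest of a gene; open, further ones), with 95% confidence intervals from limma and 4 arrays per genotype. The point estimates run from -0.22 on a further probe set of *Elmo1* to 1.01 for *P2ry6*, and *Gas6* has an interval of 0.29 to 0.69.

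The rest of the pathway was read from 74 further engulfment genes, of which 69 were measured (the other 5 are not analysed here). Of these, 5 were called higher in knockout brain and 0 lower, beside 0.214% higher and 0.011% lower of all genes. The log2 fold change was above 0 for 48 and below 0 for 21, and the median was 0.06, beside -0.0014 over all genes. The 5 were the complement genes *C1qa*, *C1qb* and *C1qc*, whose product C1q opsonises apoptotic cells, *Cd300a*, an inhibitory receptor for phosphatidylserine, and *Lgals3*, a galectin of activated phagocytes. *C1qb* had 240.9, 238.2, 296.5 and 249.4 units on knockout replicates 1 to 4, against 73.1, 70.3, 65.6 and 82.8 units on control replicates 1 to 4. No array of one group came near the other, and the log2 fold change was 1.61 (standard error 0.09, limma adjusted p = 0.00177). *C1qc* rose by 1.41 and *C1qa* by 1.36 on the log2 scale (limma adjusted p = 0.00243 and 0.00245). All 3 complement genes are also in the list of microglia and macrophage markers, so they are not a separate reading of it.

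*Cd300a* had 54.8, 52.8, 55.6 and 32.4 units on knockout replicates 1 to 4, against 9.0, 2.6, 4.4 and 8.9 units on control replicates 1 to 4 (log2 fold change 1.54, limma adjusted p = 0.011). *Lgals3* had 15.4, 20.9, 36.6 and 24.5 units on knockout replicates 1 to 4, against 1.4, 1.1, 1.1 and 2.5 units on control replicates 1 to 4 (log2 fold change 1.18, limma adjusted p = 0.0262). On every control both genes were under 16, the constant added, which shrinks their fold changes. The complement genes stayed called, and *Cd300a* and *Lgals3* did not, without knockout replicate 2, without control replicate 3, with the equal-variance test that the methods name and with the Y-linked gene *Eif2s3y* as a covariate (adjusted p = 0.0981 for *Cd300a* and 0.163 for *Lgals3* by the methods' test). *Lgals3* alone also lost its call without knockout replicate 4 (limma adjusted p = 0.0965) and with a constant of 50 (0.0921). The same held for it without control replicate 1 (0.102), 2 (0.114) or 4 (0.0893). *Cd300a* alone lost its call without knockout replicate 3 (limma adjusted p = 0.0539) and with a constant of 1 (0.0616). Against the pair of controls with Y-linked signal 1 gene, *C1qc*, was called. None of the 5 was called on knockout replicates 3 and 4 alone, without scaling or by the methods' test at unequal variances, although the fold changes were close to those above. On replicates 3 and 4 alone the log2 fold changes were 1.42 for *C1qa*, 1.70 for *C1qb*, 1.48 for *C1qc*, 1.39 for *Cd300a* and 1.36 for *Lgals3*, with limma adjusted p-values of 0.0544, 0.0544, 0.0631, 0.203 and 0.0631 in that order. Without scaling *C1qb* had 1.68 (limma adjusted p = 0.0787). Among the genes not called, the log2 fold changes furthest above 0 belonged to the scavenger receptor *Stab1* (0.87, limma adjusted p = 0.359), to *Anxa1* (0.82, 0.565), which encodes a phosphatidylserine-binding annexin, and to the bridging thrombospondin *Thbs1* (0.65, 0.783). Furthest below 0 were *Gpr132*, a receptor for lysolipids (-0.32, limma adjusted p = 0.765), the microglial receptor *Trem2* (-0.23, 0.934) and *Cd300lf* (-0.14, 0.908), and all of these had means under 50 in both groups.

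**Figure D4:**
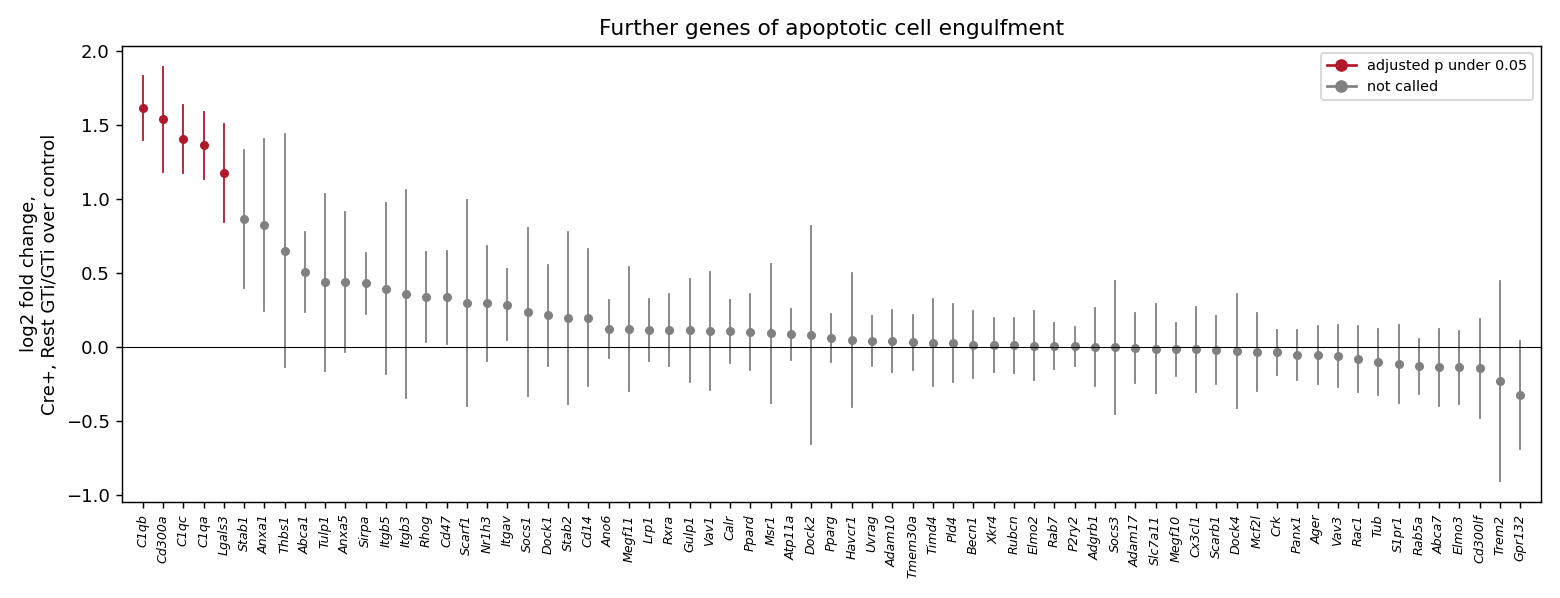
Log2 fold change, knockout (*Cre+, Rest GTi/GTi*) over control (vertical axis, scale of intensity + 16), of the 69 further engulfment genes in order of size, with 95% confidence intervals from limma and 4 arrays per genotype. The 5 genes at an adjusted p under 0.05 are in red, between 1.18 for *Lgals3* and 1.61 for *C1qb*, and the rest are in grey.

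The genes most like *Gas6*, *Mertk* and *P2ry6* in their values over the 8 arrays were looked for among 11213 genes with a mean intensity of at least 50. Points in these correlations share the arrays, their genotype and their dissection, so they are a description. The genes were picked by this likeness, so the highs and lows that they share with a member follow from the choice. For *Gas6* they were *Map3k20* (Pearson r = 0.971 over 8 arrays), *Nrros* (0.965) and *Ptprm* (0.965). *Map3k20*, the most alike, had 389.7, 375, 370.9 and 340.7 units on knockout replicates 1 to 4, against 289, 285.8, 290.2 and 285.8 units on control replicates 1 to 4. It shared with *Gas6* the lowest value of the knockout group on replicate 4, and so did *Nrros* (55.5 units) and *Ptprm* (181.5 units). For *Mertk* the most alike were *Shc1* (r = 0.99 over 8 arrays), *Nfic* (0.98) and *Pcolce* (0.978). *Shc1* had 200.1, 268.8, 139.7 and 162.1 units on knockout replicates 1 to 4, against 127.3, 132, 142.6 and 131.9 units on control replicates 1 to 4. Like *Mertk*, it was highest on knockout replicates 1 and 2, and so were *Nfic* and *Pcolce*. The part of any cell type in these patterns was not tested. For *P2ry6* the most alike were *Id3* (r = 0.964 over 8 arrays), *Nans* (0.958) and *Kat2a* (0.958).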

How the data were processed

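RNA of E12.5 brain was read on Affymetrix mouse arrays, 4 per genotype. The deposited values are linear intensities per probe set, starting at 0 and with array medians of 40.9 to 68, although the authors' methods and the labels name RMA (no version given), which ends in log2 values on equal distributions. Which step made them is not stated. The number of arrays limits the precision.

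The 64 Affymetrix control probe sets of the 45101 were dropped. A single gene symbol was available for 34945 probe sets, which alone were assigned to genes, while 932 had several symbols and 9160 had none. Arrays were quantile-normalized, 16 was added and log2 taken. The mean of 30.6% of probe sets lay below that constant, so their fold changes are understated. Tests used limma 3.58.1 (lmFit, eBayes) in R 4.3.3 without covariates, adjusted by Benjamini-Hochberg over 45037 probe sets, and two-sided exact permutation tests over the 70 splits of 4 against 4 arrays (smallest p 0.0286). The fit was tested on simulated data.

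The members, the lists and the settings were chosen with earlier results of these data known. Of the members, *Gas6* and *P2ry6* also stand in a gene table that the study drew from these samples, so their direction is not independent evidence. Named were all members, the further engulfment genes called plus the 3 of largest fold change in each direction among the rest, up to 3 most intense genes of the marker lists set beside a result, and the 3 genes most correlated with each of the 3 members of smallest p. *Rest*, *Xist*, *Eif2s3y*, *Osr1*, *Itgam* and *Spi1* fall outside this rule and were named after their values were seen. Alternatives covered scaling, the constant, the test, a filter on dim probe sets, the choice of probe set, the replicate block, array weights, sex and the arrays used.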

Additional observations from a re-analysis of the deposited data

Results flagged for a closer look

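Of 36 groups of 4 arrays (18 probe sets in 2 genotypes), 2 held an array far from the other 3 by Dixon's test, and chance alone marks about 1 in 20 groups. The gap to the nearest array was taken on the scale of log2(intensity + 16). On the brightest *Xkr8* probe set, control replicate 1 read 57.8 and the other controls 33.5 to 34.7, and the gap was 0.937 of the range of the group on that scale. On the brightest *Cd36* probe set, control replicate 2 read 0.6 and the other controls 13.7 to 15.8, with a gap of 0.898 of the range on the log2 scale.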

How the results depend on the processing

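Under all 24 alternatives no member was called in either direction. Of the members' fold changes under each alternative, 220 kept their direction and 15 reversed. On knockout replicates 3 and 4 alone, *Axl* (-0.027), *Mfge8* (-0.060) and *Elmo1* (0.037) reversed. *Tyro3* reversed without scaling (0.042), with the mean of its probe sets (0.016) and without control replicate 2 (0.012), with a range of -0.112 to 0.012 with 1 array left out. *Xkr8*, near 0, reversed with a common median (0.0022), cyclic loess (0.040), no scaling (0.10) and the mean of its probe sets (0.12), and without knockout replicates 1 (0.26), 2 (0.03) or 4 (0.08) or control replicates 1 (0.21) or 3 (0.18), with a range of -0.070 to 0.26 with 1 array left out. The median of the members was 0.24 without scaling, where the median of all genes moved to 0.05, 0.33 over the 8 members left without less specific probe sets, and 0.055 on replicates 3 and 4 alone, and it ran from 0.13 to 0.24 with 1 array left out. The further engulfment genes called higher numbered 0 without scaling, with the methods' t-test at unequal variances, with the replicate block and on replicates 3 and 4 alone, 1 against the controls with Y-linked signal alone, and 3 with the methods' t-test at equal variances, with *Eif2s3y* as a covariate or among the 46 at least 50 in intensity. With 1 array left out they numbered 3 to 5. Their fold changes stayed close to the main ones where the count was 0: that of *C1qb*, 1.61, was 1.68 without scaling (adjusted p = 0.0787), 1.61 at unequal variances (0.051) and with the replicate block (0.06), and 1.70 on replicates 3 and 4 alone (0.0544), by limma except for the t-test. Over all genes, 39 were called higher, and 2 without scaling, 14 and 0 with the methods' t-test at equal and unequal variances, 0 with the replicate block or on knockout replicates 3 and 4 alone, 13 with *Eif2s3y*, 5 against the Y-linked controls and 24 with a constant of 1. With 1 array left out the lowest counts were 21 (knockout replicate 2), 23 (control replicate 3) and 24 (control replicate 2). Genes called lower numbered 0 to 6. The causes were not tested. Signals near the floor limit what can be read from *Cd36* and *P2ry6*, whose fold changes follow the added constant.

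Replicate numbers did not pair the arrays: residuals of same-numbered arrays correlated at -0.13 to 0.007 and 0 of 8 arrays correlated best with its own number. With the replicate block the adjusted p of *Gas6* was 0.583 and of *Mertk* 0.741 (limma).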

Other observations

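Further marker lists varied between single arrays. The mean log2 level of 6 choroid plexus markers, relative to the controls, was 1.46, 1.18, -0.76 and -0.52 on knockout replicates 1 to 4 and ran from -0.70 to 1.04 on the controls. That of 10 hindbrain Hox genes was -0.60, 0.62, 1.78 and 1.18 on knockout replicates 1 to 4 and ran from -0.42 to 0.81 on the controls. Erythroid markers (6 measured of 8) ran from -0.36 to 0.71 on the knockout arrays and from -0.24 to 0.16 on the controls. Pericyte markers (7) ran from 0.14 to 0.32 on the knockout arrays and from -0.07 to 0.04 on the controls, and none of the 7 was called. No marker of these lists was called in either direction.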
